A study of Mus musculus with 9 samples.

Results

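The genes described here are 8 genes of myelin lipid metabolism: Ugt8a, Gal3st1, Fa2h, Cers2, Aspa, Enpp6, Degs1 and Gltp. They were chosen by name, for the galactolipid, sulfatide, ceramide, acetyl-aspartate and choline steps their products carry out, and not by a measured value. Earlier results of these data were known when the genes and the lists set beside them were chosen. All 8 were among the 43629 genes counted, and all 8 passed the filter on low counts that left 19753 genes to test. Bulk RNA-seq was done on frontal cortex of female C57BL/6 mice, of which 5 were wild type (WT) and 4 were Neat1-/-, with no treatment named in the labels. WT replicates 1 to 5 were 2, 2, 3, 4 and 4 months of age, and Neat1-/- replicates 1, 3, 4 and 5 were 3, 3, 4 and 2 months of age. In the Neat1-/- allele lacZ and polyadenylation signals sit just downstream of the Neat1 start site, so the long non-coding RNA is disrupted in every cell type and not in oligodendrocytes (OLGs) alone. Levels are counts per 1e+06 counts (CPM) after TMM normalization, given as mean ± SD over mice, and the genotype difference is the log2 fold change of Neat1-/- over WT mice with its standard error (SE) from edgeR's quasi-likelihood test with age as a covariate.

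Myelin is the membrane that OLGs wrap around axons, and its outer leaflet is rich in galactosylceramide and in sulfatide, the sulfated form. OLGs make these lipids from ceramides with very long and often 2-hydroxylated fatty acids, galactose being added in the endoplasmic reticulum and sulfate in the Golgi. N-acetyl-aspartate made by neurons is split in OLGs to give acetate for lipid synthesis, and choline is recovered from breakdown products of phosphatidylcholine.

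Library totals of the deposited counts lay between 51276067 and 64648856. Neat1 was at 81.5 ± 23.0 CPM (60.8 to 119.9, n = 5) in WT mice and at 8.14 ± 1.18 CPM (7.11 to 9.72, n = 4) in Neat1-/- mice, so the libraries matched their genotype labels. WT replicates 3 and 4 stood apart on the first principal component, at 47.7 and 42.1 against -17.8 to -4.80 for the other 7 libraries. Defining markers of mature OLGs were abundant in every library: the CPM of 25 such markers summed to between 2763 and 4233 in WT mice and between 2387 and 3556 in Neat1-/- mice.

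The RefSeq windows before the start sites of 7 of the 8 genes were read from the GRCm38.p6 assembly, and Fa2h had none. The 250 bases before the start are shown for 3 genes whose levels had a pairwise Pearson r of 0.79 to 0.87 across the mice, to let their base composition and motif letters be compared. They belong to Ugt8a (chr3:125938653-125938902, minus strand), Gal3st1 (chr11:3983386-3983635, plus strand) and Enpp6 (chr8:46986637-46986886, plus strand), and none of these bases lies inside an annotated gene. Each is written 5′ to 3′ on the strand of the gene, and capitals mark letters of the SOX motif described below.
Ugt8a: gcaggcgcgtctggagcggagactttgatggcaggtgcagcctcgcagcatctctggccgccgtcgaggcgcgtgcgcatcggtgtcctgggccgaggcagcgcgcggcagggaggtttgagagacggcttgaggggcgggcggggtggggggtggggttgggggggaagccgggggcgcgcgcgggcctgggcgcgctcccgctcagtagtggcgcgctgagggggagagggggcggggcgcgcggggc
Gal3st1: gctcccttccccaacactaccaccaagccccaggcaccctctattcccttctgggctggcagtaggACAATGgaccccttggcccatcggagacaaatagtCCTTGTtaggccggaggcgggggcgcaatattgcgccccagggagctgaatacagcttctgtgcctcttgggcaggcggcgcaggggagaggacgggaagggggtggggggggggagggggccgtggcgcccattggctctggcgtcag
Enpp6: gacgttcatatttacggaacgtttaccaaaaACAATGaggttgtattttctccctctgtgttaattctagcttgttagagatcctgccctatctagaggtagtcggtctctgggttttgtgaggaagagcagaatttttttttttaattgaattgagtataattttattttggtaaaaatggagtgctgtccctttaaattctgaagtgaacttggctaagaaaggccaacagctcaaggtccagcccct

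The windows were searched on both strands for 4 motifs, none of which contains another: CTGGNAC, bound by the myelin regulator MYRF, ACAANG of the SOX family, CAGCTG, an E-box, and TCACNCCAC, a sterol response element. The Gal3st1 window shown held 2 SOX matches, starting 184 and 149 bases before the start, and the Enpp6 window held 1 at 219 bases. An overlapping Gal3st1 window held the same 2 matches, and another Gal3st1 window held no match of the 4. No match of the 4 was found in the Ugt8a window. CTGGNAC and TCACNCCAC were found in none of the 10 windows of the 7 genes. An E-box match stood in the windows of Aspa and Degs1 and in 1 of 2 windows of Cers2. Of 32851 RefSeq windows of this length, 36.3% held the SOX letters, 13% the E-box, 16.1% CTGGNAC and 1.05% the sterol response letters, so these matches describe the windows and mark no site. The windows differed more in composition: G and C made up 76.8% of the bases in Ugt8a and Gltp and 69.6% in Degs1, against 38.8% in Aspa and 38.4% in Enpp6.

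In WT cortex the level per kilobase of merged exons, which allows levels of different genes to be compared, was highest for Degs1 and lowest for Enpp6. Degs1, the desaturase that turns dihydroceramide into ceramide in most cell types, was at 28.5 ± 1.73 CPM per kb (SD, n = 5). It stood 2.29-fold above Ugt8a, at 12.4 ± 1.52, with no overlap between the mice. Ugt8a and Cers2, at 10.9 ± 0.904, overlapped, and Cers2 stood 2.06-fold above Gltp. Gltp, at 5.31 ± 0.732 CPM per kb, overlapped with Gal3st1, at 4.27 ± 0.468. Gal3st1 was 1.56-fold above Aspa, at 2.74 ± 0.450, which overlapped with Fa2h, at 2.62 ± 0.285. Fa2h stood 3.52-fold above Enpp6, at 0.744 ± 0.108 CPM per kb. In Neat1-/- mice the same measure ran from 29.0 ± 1.51 for Degs1 (SD, n = 4) to 0.615 ± 0.172 for Enpp6.

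Across the genotypes, no gene of the 8 passed an adjusted p of 0.05 in edgeR, DESeq2 or limma, where 14 of all genes tested, 0.0709%, did in edgeR, 5 of them lower in Neat1-/- mice (0.0253%). Ugt8a was the only member lower in Neat1-/- mice at an unadjusted p under 0.05, and 0 members were higher. Among all genes tested 4.03% were lower and 4.27% higher by this rule. The log2 fold change was negative for 7 of the 8 genes, against 50.1% of all genes tested, and its median over the 8 was -0.19, against -0.00023 over all genes. For none of the 8 did the mice of the genotypes separate without overlap, which 2.67% of all genes tested did (1.01% with every Neat1-/- mouse lower and 1.66% with every Neat1-/- mouse higher). RNA from whole cortex cannot tell fewer OLGs apart from less RNA per OLG.

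**Figure D1:**
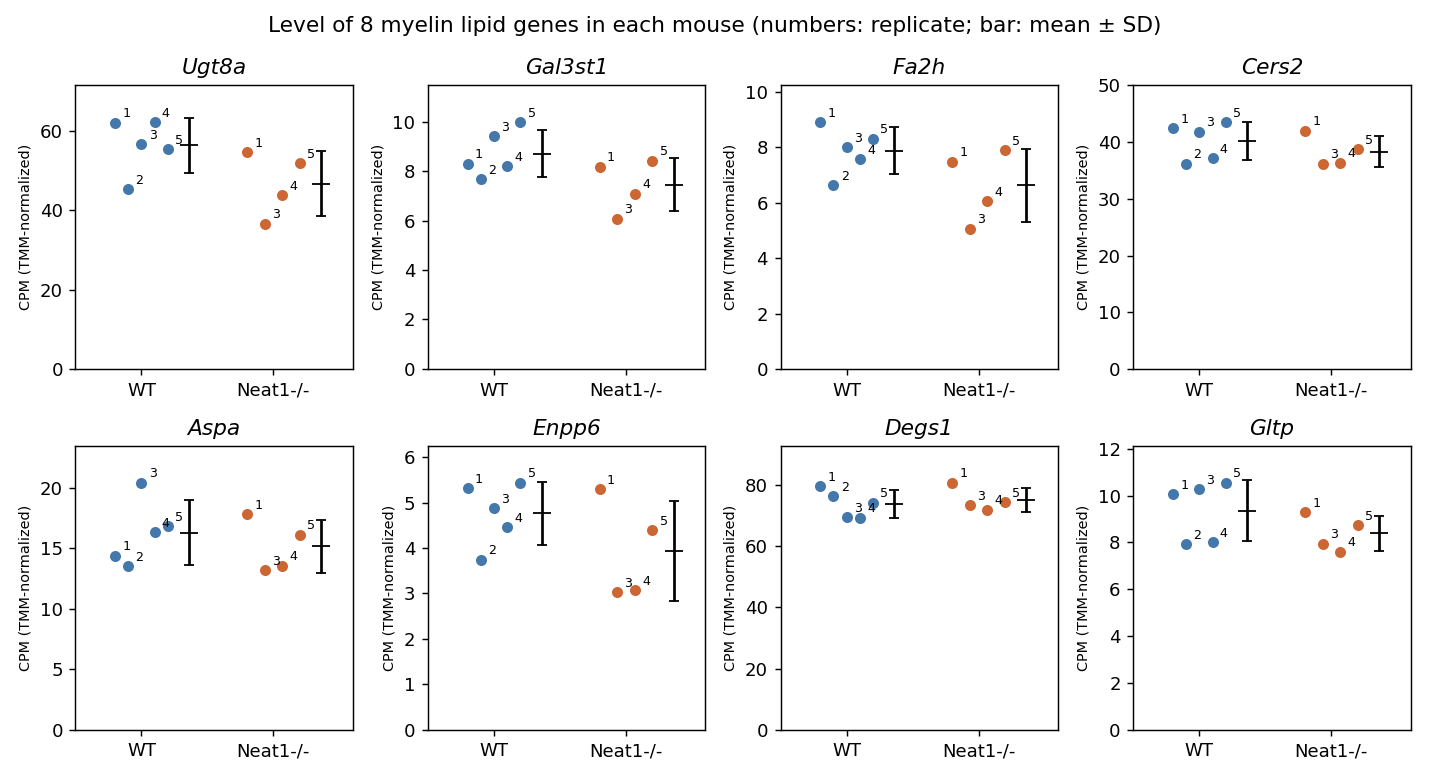
Level of each of the 8 genes in every mouse, in TMM-normalized CPM from 0 on the vertical axis, with WT mice in blue and Neat1-/- mice in orange. Numbers are the replicates and the bar is the mean ± SD; the genotypes overlap in every panel, and Neat1-/- replicate 3 is the lowest mouse for 5 genes.

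The first galactolipid step is carried out by Ugt8a (ENSMUSG00000032854, GRCm38 chr3:125865271-125938619, minus strand), which joins galactose to ceramide to give galactosylceramide. Ugt8a was at 62.2, 45.4, 56.7, 62.3 and 55.5 CPM in WT replicates 1 to 5, and at 54.8, 36.7, 43.9 and 51.9 CPM in Neat1-/- replicates 1, 3, 4 and 5. All 4 Neat1-/- mice were below the WT mean; replicates 3 and 4 lay below every WT mouse, and replicates 1 and 5 above the lowest WT mouse only. The means were 56.4 ± 6.90 CPM in WT mice and 46.8 ± 8.17 CPM in Neat1-/- mice, 17.0% lower. The log2 fold change was -0.27 (SE 0.113, 95% interval -0.51 to -0.02, adjusted p = 0.581, edgeR). On the CPM, the exact permutation p was 0.0873, two-sided, where 0.00794 is the smallest that 5 mice against 4 allow. The unadjusted p from edgeR rose above 0.05 when Neat1-/- replicate 3 (log2 fold change -0.17) or 4 (-0.23) was left out, when WT replicate 1 (-0.22) or 4 (-0.23) was left out, and when WT replicates 3 and 4 were left out together (-0.21).

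Gal3st1 (ENSMUSG00000049721, chr11:3983636-3999326, plus strand) encodes the sulfotransferase that turns galactosylceramide into sulfatide. Its level in WT replicates 1 to 5 was 8.29, 7.67, 9.41, 8.19 and 9.99 CPM, and in Neat1-/- replicates 1, 3, 4 and 5 it was 8.19, 6.08, 7.09 and 8.42 CPM. Neat1-/- replicates 3 and 4 lay below every WT mouse, and replicates 1 and 5 lay within the WT range. WT mice averaged 8.71 ± 0.956 CPM and Neat1-/- mice 7.45 ± 1.08 CPM, 14.5% lower, with a log2 fold change of -0.22 (SE 0.111, 95% interval -0.47 to 0.02) and an adjusted p of 0.623 from edgeR. The exact permutation p was 0.119, two-sided. The log2 fold change of Gal3st1 was -0.14 without Neat1-/- replicate 3, and the unadjusted p was under 0.05 without Neat1-/- replicate 5 (-0.31) or 1 (-0.28) or without WT replicate 2 (-0.28) or 4 (-0.26).

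Fa2h (ENSMUSG00000033579, chr8:111345135-111393824, minus strand) encodes fatty acid 2-hydroxylase, which adds the hydroxyl group carried by much of the galactolipid of myelin. WT replicates 1 to 5 had 8.92, 6.62, 8.0, 7.57 and 8.31 CPM of Fa2h, and Neat1-/- replicates 1, 3, 4 and 5 had 7.49, 5.07, 6.05 and 7.89 CPM. As for Gal3st1, the replicates 3 and 4 of the Neat1-/- group were the lowest mice. WT mice averaged 7.88 ± 0.858 CPM and Neat1-/- mice 6.62 ± 1.30 CPM, and the log2 fold change of -0.25 (SE 0.128, 95% interval -0.53 to 0.02, adjusted p = 0.629, edgeR) did not pass the test. Its exact permutation p was 0.119, two-sided. Without Neat1-/- replicate 3 the log2 fold change of Fa2h was -0.15, and the unadjusted p was under 0.05 without Neat1-/- replicate 5 (-0.35) or 1 (-0.33) or without WT replicate 2 (-0.35).

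Ceramide itself is made by the ceramide synthases and finished by the desaturase. Cers2 (ENSMUSG00000015714, chr3:95314791-95323599, plus strand), the synthase that takes very long acyl chains, was at 42.4, 36.2, 41.9, 37.2 and 43.6 CPM in WT replicates 1 to 5 and at 42.0, 36.2, 36.4 and 38.8 CPM in Neat1-/- replicates 1, 3, 4 and 5. The ranges of the genotypes nearly coincided. Its log2 fold change was -0.07 (SE 0.0648, 95% interval -0.21 to 0.07, adjusted p = 0.777, edgeR), and it ran from -0.12 without Neat1-/- replicate 1 to -0.03 without WT replicate 5. Of its 3676 exon bases, 75 are shared with the opposite-strand gene Setdb1 and 144 with the antisense gene 6330562C20Rik, and the sources used here do not say whether counting used the strand.

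Degs1 (ENSMUSG00000038633, chr1:182275772-182282804, minus strand) was the member with a positive log2 fold change. Degs1 was at 79.7, 76.4, 69.5, 69.4 and 74.3 CPM in WT replicates 1 to 5 and at 80.8, 73.4, 72.0 and 74.5 CPM in Neat1-/- replicates 1, 3, 4 and 5. The highest mouse was Neat1-/- and the 2 lowest were WT. The mean in Neat1-/- mice was 101.8% of that in WT mice, with a log2 fold change of 0.03 (SE 0.0437, 95% interval -0.07 to 0.12, adjusted p = 0.886, edgeR). Its interval was the narrowest of the 8.

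Gltp (ENSMUSG00000011884, chr5:114669398-114690984, minus strand) encodes a protein that carries glycolipids between membranes. Gltp was at 10.1, 7.93, 10.3, 8.0 and 10.5 CPM in WT replicates 1 to 5, and at 9.28, 7.94, 7.60 and 8.73 CPM in Neat1-/- replicates 1, 3, 4 and 5. WT mice fell into a higher trio and a lower pair, and the Neat1-/- mice lay around the lower pair and between them. WT mice averaged 9.36 ± 1.29 CPM and Neat1-/- mice 8.38 ± 0.761 CPM, with a log2 fold change of -0.16 (SE 0.106, 95% interval -0.39 to 0.07, adjusted p = 0.683, edgeR). It was -0.10 without WT replicate 5 and -0.24 without WT replicate 2, where the unadjusted p was under 0.05.

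The remaining pair supplies acetate and choline. Aspa (ENSMUSG00000020774, chr11:73304992-73329596, minus strand) encodes aspartoacylase, which splits N-acetyl-aspartate into acetate and aspartate and whose loss causes Canavan disease. Aspa was at 14.4, 13.5, 20.4, 16.3 and 16.9 CPM in WT replicates 1 to 5 and at 17.8, 13.2, 13.6 and 16.1 CPM in Neat1-/- replicates 1, 3, 4 and 5. WT replicate 3 was the highest mouse and Neat1-/- replicate 1 the next. The log2 fold change was -0.10 (SE 0.118, 95% interval -0.35 to 0.16, adjusted p = 0.828, edgeR). With single libraries left out it ran from -0.19 without Neat1-/- replicate 1 to -0.0091 without WT replicate 3.

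Enpp6 (ENSMUSG00000038173, chr8:46986887-47096762, plus strand) encodes a choline-specific phosphodiesterase used as a marker of OLGs that have just begun to differentiate. It was the member with the fewest reads, 173 to 340 per library. Enpp6 was at 5.32, 3.75, 4.88, 4.45 and 5.44 CPM in WT replicates 1 to 5 and at 5.29, 3.02, 3.06 and 4.39 CPM in Neat1-/- replicates 1, 3, 4 and 5. The Neat1-/- mice split into a pair below all WT mice and a pair within them. WT mice averaged 4.77 ± 0.692 CPM and Neat1-/- mice 3.94 ± 1.10 CPM, with the widest interval of the 8 around its log2 fold change of -0.28 (SE 0.176, 95% interval -0.66 to 0.11, adjusted p = 0.669, edgeR). The log2 fold change of Enpp6 was -0.17 without Neat1-/- replicate 3 and -0.16 without Neat1-/- replicate 4, and the unadjusted p was under 0.05 without Neat1-/- replicate 1 (-0.46) or WT replicate 2 (-0.39).

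**Figure D2:**
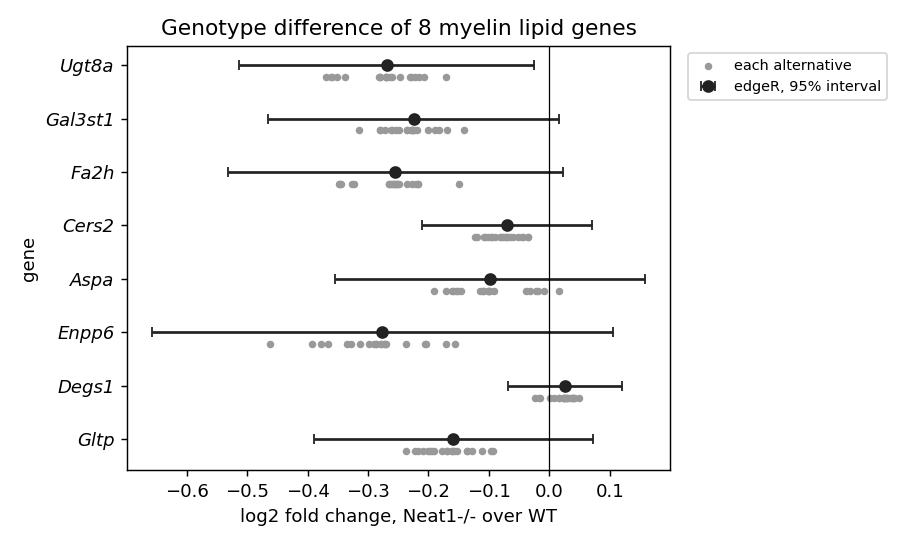
Log2 fold change of each gene in Neat1-/- over WT mice (horizontal axis), as black points with the 95% interval from edgeR, and in grey the value under each of 21 alternative settings. The interval of Ugt8a alone ends below 0, at -0.02, and that of Degs1 is centred near 0.

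The level of the OLG markers was measured in the same mice. All 25 markers of mature OLGs had a negative log2 fold change (median -0.23), against 50.1% of all genes tested. The unadjusted p was under 0.05 for 8 of the 25, where 4.03% of all genes tested were lower by this rule. The adjusted p was under 0.05 for 0 of them. The mean log2 CPM of the markers, centred over the 9 mice, ran from -0.28 to 0.24 in WT and from -0.37 to 0.11 in Neat1-/- mice, a difference of -0.22 (two-sided exact permutation test, p = 0.167). The part of the markers in the result of each member was not tested, but each member was also set against them within each mouse. On this scale, log2 CPM of the member less the mean of the markers, Ugt8a differed by -0.06 between the genotypes (exact permutation p = 0.381), Gal3st1 by -0.01 (p = 0.889), Fa2h by -0.05 (p = 0.540) and Enpp6 by -0.08 (p = 0.452). Gltp differed by 0.07 (exact permutation p = 0.524), Aspa by 0.12 (p = 0.357), Cers2 by 0.15 (p = 0.119) and Degs1 by 0.24 (p = 0.159). None of the 8 passed, and these are p-values without adjustment.

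**Figure D3:**
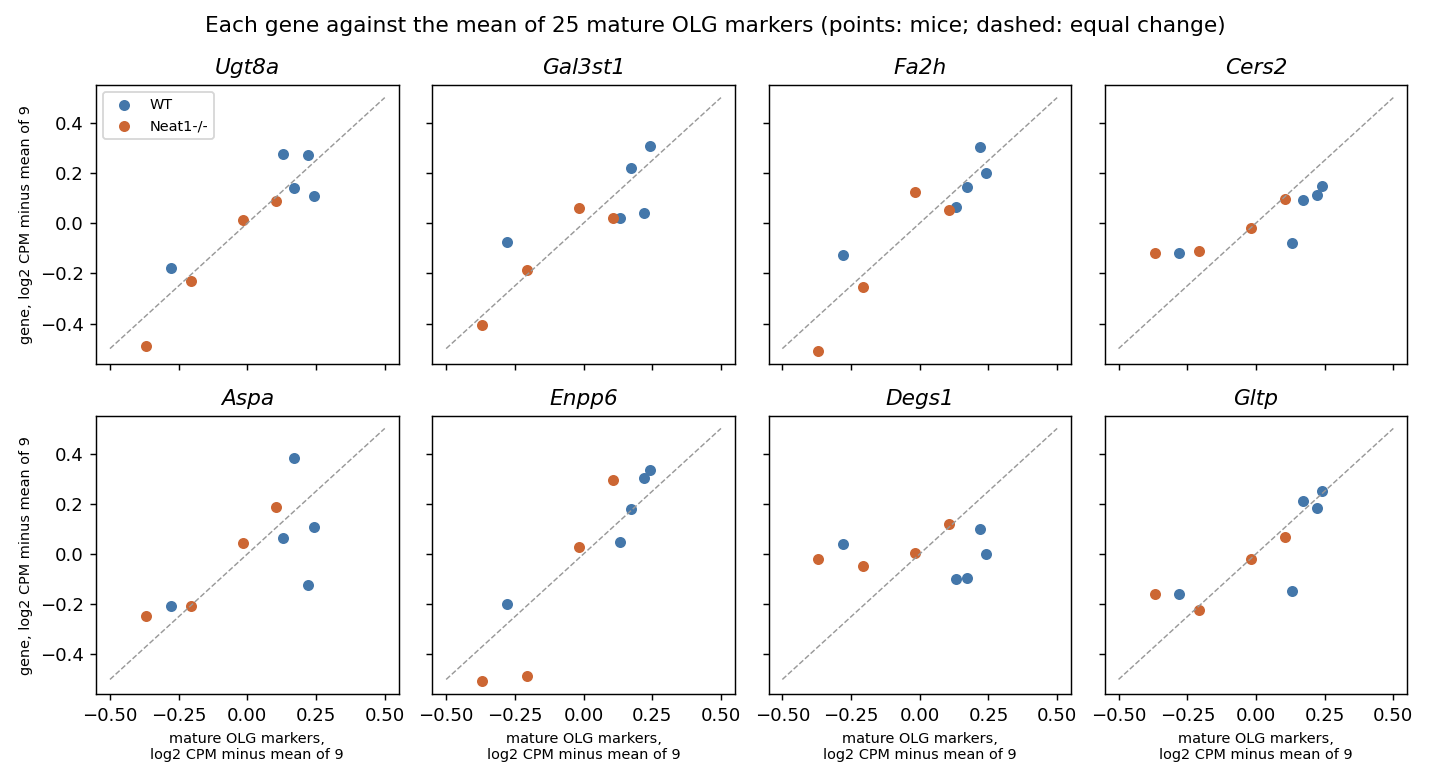
Log2 CPM of each gene (vertical axis) against the mean log2 CPM of 25 mature OLG markers (horizontal axis), each less its mean over the 9 mice; blue points are WT and orange points Neat1-/- mice, and the dashed line marks equal change. Ugt8a follows the line, Cers2 runs flatter, and Degs1 shows little relation, with a Pearson r of 0.0779.

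Over the 9 mice, which share the same libraries and normalization, Ugt8a had a Pearson r of 0.932 and a Spearman rho of 0.833 with the marker mean. The values were 0.928 and 0.933 for Enpp6, 0.917 and 0.917 for Fa2h, and 0.726 and 0.717 for Aspa. Degs1 stood apart from the rest, at 0.0779 and 0.00. With the 2 mice farthest from the median of the markers left out, r was 0.869 for Ugt8a, 0.930 for Enpp6, 0.888 for Fa2h, 0.503 for Aspa and 0.202 for Degs1. These are descriptions, and no p is given. Too few mice of each genotype were present to repeat them within a genotype.

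The same division appeared among the members. The 21 pairs without Degs1 had a Pearson r between 0.61 and 0.97 and a Spearman rho between 0.58 and 0.93, while the 7 pairs with Degs1 lay between -0.20 and 0.36 in r. The closest pairs were Cers2 with Gltp (r = 0.969), Ugt8a with Fa2h (0.930) and Fa2h with Enpp6 (0.922). Neat1-/- replicate 3 had the lowest level of 5 members, and WT replicate 5 the highest level of 4.

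Among 14994 genes with a mean of at least 1 CPM, the 3 whose log2 CPM was most like that of each member over the 9 mice were taken, by Pearson r. For Ugt8a they were Erbb3, a neuregulin receptor (r = 0.971), Mtus1 (0.955) and Prr5l (0.949). Those of Fa2h included Pigk (0.969) and Jam3 (0.959), and those of Enpp6 included Smco3 (0.965) and Jam3 (0.936). For Gal3st1 they were Abca2, Jam3 and Lpar1 (0.944 to 0.952), and for Cers2 they were Gltp (0.969), Hhip (0.968) and Rftn1 (0.956). For Gltp they were Cers2 (0.969), Cd82 and Ly6g6e (0.949 each), and for Aspa they were Aif1l, Nbas and Tmbim1 (0.940 to 0.943). Degs1 was nearest to Lamp1, a lysosomal membrane protein (0.982), and to the proteasome subunits Psmd8 (0.959) and Psma2 (0.957).

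Age was tested in the same fit, since the mice were 2 to 4 months old. No member changed with age at an unadjusted or an adjusted p of 0.05, where 2.86% of all genes tested rose and 3.12% fell with age at an unadjusted p, and 0 at an adjusted p in edgeR. The slopes were small: 0.0033 log2 units per month for Ugt8a (SE 0.068), 0.02 for Gal3st1 (SE 0.067) and -0.05 for Fa2h (SE 0.077). Degs1 had the slope farthest from 0 relative to its error, -0.05 log2 units per month (SE 0.027); without WT replicate 5 its slope was -0.06 with an unadjusted p under 0.05.

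Set out by age, the mean in Neat1-/- mice as a share of that in WT mice was nearest to 100% at 2 months for every member but Degs1, at 95.4%. For Ugt8a it was 96.5% at 2 months, 80.6% at 3 months and 74.5% at 4 months. For Enpp6 the shares were 96.9%, 85.2% and 62.0%, and for Gal3st1 they were 105.5%, 75.8% and 78.0%. Each age held only 1 or 2 mice of a genotype. A term for genotype by age, added after these values were seen, gave a difference in slope, Neat1-/- less WT, of -0.19 log2 units per month for Ugt8a (SE 0.141), -0.22 for Gal3st1 (SE 0.135) and -0.32 for Enpp6 (SE 0.224). None of the 8 members passed at an unadjusted p of 0.05, where 1.95% of all genes tested did (0.764% with a negative difference), and 0 genes passed at an adjusted p in edgeR, with 386 at an unadjusted p.

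The wider pathways around the 8 genes were listed by function, and in edgeR 0 genes of any of these lists, or of the marker lists, passed an adjusted p of 0.05. Ceramide synthesis upstream of the galactolipids held 15 listed genes besides Cers2 and Degs1, of which 14 were tested, and 0 were lower or higher at an unadjusted p under 0.05 (median log2 fold change -0.02). The other ceramide synthases were at 12.9 ± 0.977 CPM per kb (Cers1), 11.2 ± 0.414 (Cers5), 8.27 ± 0.220 (Cers6), 6.25 ± 0.237 (Cers4) and 0.169 ± 0.0385 (Cers3) in WT mice. By its mean, Cers2 was the third of these in whole cortex. The 11 enzymes that turn ceramide into sphingomyelin, glucosylceramide and gangliosides had a median of 0.03, with 0 lower and 0 higher. Among them Samd8 was at 118.2 CPM in WT and 115.2 in Neat1-/- mice, and B4galt6 at 113.0 and 115.2 CPM. Elongation of very long fatty acids, with 9 of 10 genes tested, likewise had 0 in either direction, with Hacd3 at 223.7 and 214.5 CPM and Tecr at 216.6 and 225.3 CPM.

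Transfer proteins and raft proteins of glycolipids included 2 genes that were lower at an unadjusted p under 0.05, of 6 tested. Of all genes tested, 4.03% were lower by this rule. Mal, a proteolipid of galactolipid-rich rafts that is also among the mature OLG markers, had 183.2 ± 52.6 CPM in WT mice against 141.3 ± 28.2 CPM in Neat1-/- mice (log2 fold change -0.38, SE 0.154, adjusted p = 0.580, edgeR). Pllp, plasmolipin, was at 28.1 ± 3.76 and 23.4 ± 2.86 CPM (log2 fold change -0.26, SE 0.102, adjusted p = 0.580, edgeR).

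In the list of lysosomal breakdown the log2 fold change was positive for 10 of 12 genes, with a median of 0.04. Of all genes tested 50.1% had a negative one. At an unadjusted p under 0.05, 2 of the 12 were higher, where 4.27% of all genes tested were, and 0 passed an adjusted p of 0.05. Galc, the galactosylceramidase that removes the galactose which Ugt8a adds, had 13.9 ± 0.693 CPM in WT mice against 15.5 ± 0.609 CPM in Neat1-/- mice (log2 fold change 0.15, SE 0.057, adjusted p = 0.562, edgeR). Of the 10 microglia markers, 5 were higher at an unadjusted p under 0.05, among them Trem2 and C1qa, and their summed level was 326.6 to 379.0 CPM in WT and 356.8 to 381.3 CPM in Neat1-/- mice. Their part in the values of the lysosomal genes was not tested.

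Around Aspa, the 11 other genes of N-acetyl-aspartate metabolism had a median log2 fold change of 0.03. At an unadjusted p under 0.05, 0 were lower and 1 higher, where 4.27% of all genes tested were higher. The higher gene was Slc13a5, a citrate transporter, with 8.66 ± 0.685 CPM in WT mice against 9.87 ± 0.260 CPM in Neat1-/- mice. Every Neat1-/- mouse was above every WT mouse, as for 1.66% of all genes tested. The log2 fold change of Slc13a5 was 0.19 (SE 0.0721, adjusted p = 0.567, edgeR). Around Enpp6, 1 of 13 genes of choline lipids was lower at an unadjusted p under 0.05, where 4.03% of all genes tested were. Enpp2, autotaxin, which OLGs and the choroid plexus both express, had 320.9 ± 22.7 CPM in WT mice against 280.6 ± 12.3 CPM in Neat1-/- mice. Every Neat1-/- mouse was below every WT mouse, as for 1.01% of all genes tested. The log2 fold change of Enpp2 was -0.19 (SE 0.0493, adjusted p = 0.388, edgeR). The 8 genes of plasmalogen synthesis, another class of myelin lipid, had 0 in either direction, with Far1 at 156.9 and 149.5 CPM and Selenoi at 98.9 and 98.8 CPM.

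**Figure D4:**
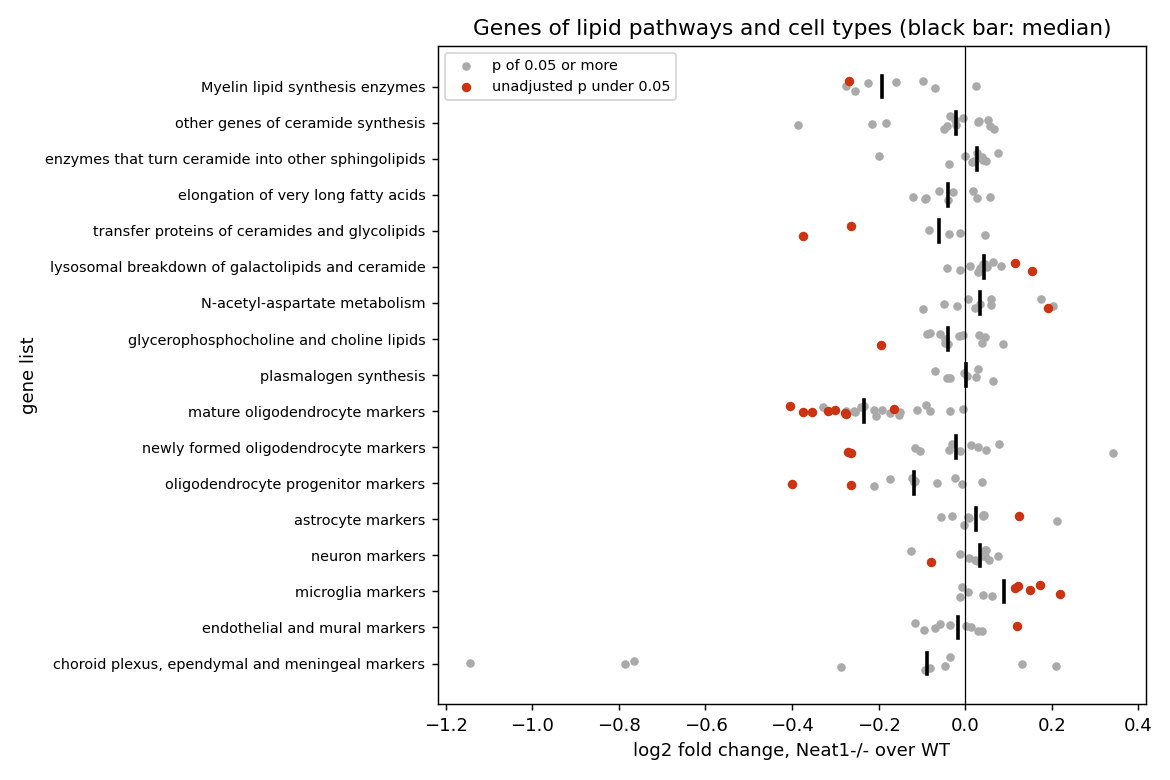
Log2 fold change in Neat1-/- over WT mice (horizontal axis) of each tested gene of the lipid pathways and cell type marker lists; red points have an unadjusted p under 0.05 and black bars are medians. The 8 myelin lipid genes, with a median of -0.19, lie near the mature OLG markers at -0.23, while the other ceramide genes lie near 0.

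Earlier stages of the OLG lineage were measured beside these. Of 11 tested markers of progenitors, 2 were lower at an unadjusted p under 0.05 and 0 at an adjusted p of 0.05: the transcription factors Olig1, with 42.0 ± 2.68 CPM in WT mice against 35.0 ± 3.06 CPM in Neat1-/- mice, and Olig2, at 15.1 ± 0.962 and 11.4 ± 1.5 CPM. For both, every Neat1-/- mouse lay below every WT mouse, as for 1.01% of all genes tested. The adjusted p from edgeR was 0.221 for Olig1 and 0.264 for Olig2. Of all genes tested, 4.03% were lower and 4.27% higher at an unadjusted p under 0.05. Of 12 markers of newly formed OLGs, 2 were lower: Bcas1, at 63.3 and 52.6 CPM, and Gpr17, at 33.3 and 27.5 CPM. This list as a whole was mixed, as 7 of its genes moved down and 5 moved up (median -0.02). Bmp4 moved furthest and upward, from 2.58 CPM in WT to 3.23 CPM in Neat1-/- mice (log2 fold change 0.34). Its unadjusted p from edgeR was 0.0704. Lists for astrocytes, neurons and endothelial cells had medians of 0.02, 0.03 and -0.02, and each held 1 gene at an unadjusted p under 0.05 (Fgfr3 and Slco1a4 higher, Nefl lower). Markers of choroid plexus, ependyma and meninges summed to 62.3 to 266.9 CPM in WT and 101.8 to 142.8 CPM in Neat1-/- mice, with a median log2 fold change of -0.09, 0 of 10 at an unadjusted p under 0.05, and their part in the values of the 8 genes was not tested.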

How the data were processed

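Cortical RNA of 5 WT and 4 Neat1-/- mice was depleted of ribosomal RNA and sequenced. The authors deposited unnormalized counts for each Ensembl gene. They also deposited normalized log2 values of 13456 genes, which served here only as an alternative input. STAR 2.5.0, HTSeq 0.8.0, limma and the mm10 genome are listed in the submitters' processing notes, whereas the supplementary methods of the study name TopHat, Bowtie and another version of HTSeq; which of them made the counts could not be settled here. Use of strand in counting is not given in the sources used here.

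Names, positions and merged exon lengths came from GENCODE vM21 (GRCm38), which named 97.5% of the IDs. edgeR 4.0.16 in R 4.3.3 was used, with filterByExpr, TMM factors and its quasi-likelihood test of a model of genotype and age in months; p-values were adjusted by Benjamini-Hochberg over all genes tested, with a threshold of 0.05. The common biological coefficient of variation came to 0.0922. Mice are the replicates. Single values were compared by two-sided exact permutation over 126 splits. Log2 CPM used a prior count of 2. Start site windows came from RefSeq. The edgeR test was run on simulated counts, drawn for each gene independently, with no shift shared by the genes of a library. Of 50 genes changed 4-fold, 45 were called with the right sign at an adjusted p under 0.05, and of 50 changed 1.25-fold, 32. Of 19553 unchanged genes, 15 were called. Genes named were the 8 genes, Neat1, those of each list at an unadjusted p under 0.05 (at most 4, by p) or else its 2 with the highest mean CPM, the other ceramide synthases, and the 3 genes most like each member; values of some genes that this rule takes are not reported here. Bmp4, and the genes that share exon bases with Cers2, were named in addition to this rule. The 8 genes and the lists were chosen with earlier results of these data known.

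Alternatives were DESeq2 1.42.0, limma 3.58.1 (voomWithQualityWeights), other size factors, filters and age terms, a replicate block, the deposited log2 values, and libraries left out.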

Additional observations from a re-analysis of the deposited data

How the results depend on the processing

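Of the 8 genes, 0 passed an adjusted p of 0.05 and 0 were higher at an unadjusted p under 0.05 under any of the 21 alternatives, and their median log2 fold change lay between -0.26 and -0.13. The number lower at an unadjusted p under 0.05, 1 in edgeR, was 0 with DESeq2, 0 with limma's voomWithQualityWeights, 0 with age as 3 classes, 0 without WT replicates 3 and 4 together, 3 with no filter on low counts, and 0 to 5 with single libraries left out: WT replicate 1 and Neat1-/- replicates 3 and 4 each gave 0 when left out, Neat1-/- replicate 5 gave 3, Neat1-/- replicate 1 gave 4, and WT replicate 2 gave 5. Among all genes tested the share lower by this rule was 4.03% in edgeR and 2.68% to 8.58% under the alternatives. It was 5.37% without WT replicate 2 and 3.11% without Neat1-/- replicate 1. The cause of these differences was not tested. Ugt8a had an unadjusted p under 0.05 under 12 of the 21 alternatives, with adjusted p from 0.148 to 0.908.

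With the replicate block the number was 4 with age in the model and 6 without it, against 1 with no block. The share of all genes tested was 5.78% and 5.76% with the block, against 4.03% with no block. WT replicate 2 has no Neat1-/- mouse of its number, so with the block it does not enter the genotype difference. Leaving this mouse out with no block gave 5 members lower and 5.37% of all genes tested. Its part in the values with the block was not tested. The labels do not say what a number shares. The correlations of same-numbered mice over 19753 genes were 0.044, -0.045, 0.137 and -0.077 for replicates 1, 3, 4 and 5. Same-numbered mice were of the same age for replicates 3 and 4 and of different ages for replicates 1 and 5. These values do not settle what else a number shares.

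Values near 0 changed sign. Without WT replicates 3 and 4 the log2 fold change was 0.016 for Aspa and -0.023 for Degs1, and the change per month of age was -0.037 for Ugt8a, 0.026 for Cers2 and 0.030 for Gltp. The log2 fold change of Degs1 was -0.015 on the deposited log2 values and -0.016 to 0.050 with single libraries left out. The change per month of Cers2 was 0.0047 on library size alone. With single libraries left out, the change per month ran from -0.070 to 0.048 for Ugt8a, -0.030 to 0.079 for Gal3st1, -0.127 to 0.0063 for Fa2h, -0.043 to 0.028 for Cers2, -0.020 to 0.099 for Aspa, -0.132 to 0.046 for Enpp6, -0.065 to -0.031 for Degs1 and -0.082 to 0.034 for Gltp. Relative to the mature OLG markers, Gltp was at -0.0031 with their median in place of the mean, and Gal3st1 ran from -0.058 to 0.038 with single libraries left out. Without WT replicate 2 the relative values of Cers2 (0.21) and Degs1 (0.35) each reached an exact permutation p of 0.0286. That is the smallest two-sided value that 4 mice against 4 allow.

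Enpp6, with 173 to 340 reads per library, had the widest interval of the 8 genes. Of 18 sets of values, those of the 8 genes and Neat1 in each genotype, 0 held a mouse far from the others.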
